A study of Mus musculus with 12 samples.

Results

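Among the 6 mice that carried pEGFR-Lo tumors, the tumor cells of mice 3 and 6 had low levels of interferon-stimulated and antigen presentation genes, while those of mice 1, 2, 4 and 5 had high levels. These 2 and 4 arrays, of 12 arrays in all, are compared here within pEGFR-Lo. The division was chosen by the measured level of interferon-stimulated and MHC genes on these same arrays, so the differences between the 2 and the 4 arrays are a description and carry no test. They were read over 19938 genes, with 1 probe set per gene. The question is which genes besides interferon targets and MHC genes set mice 3 and 6 apart, and what these mice do to the comparison of pEGFR-Lo with pEGFR-Hi.

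Tumors were grown from mouse neural progenitor cells that lacked Ink4a/Arf and carried human EGFRvIII, a truncated, constitutively active form of the EGF receptor. The pEGFR-Hi and pEGFR-Lo lines differ in the phosphorylation of EGFRvIII, and both groups share the Ink4a/Arf deletion and the transgene. Each group comes from 1 tumor line, so its 6 mice are replicates of a line and not of a genotype. Tumor cells were injected into the brains of syngeneic FVB mice, 2 µl of a suspension of 200000 cells per µl, and were recovered near the median survival of each group by digestion of the brain, a Percoll gradient against myelin and red blood cells, and sorting of ZsGreen-tagged cells without DAPI. Median survival was shorter with pEGFR-Hi, so the groups also differ in time of growth, which cannot be told apart from the line. The sources used here do not state the age of the mice, and nothing in the labels separates mice 3 and 6 from the other pEGFR-Lo mice. RNA of each mouse was hybridized to 1 Affymetrix Mouse Gene 1.0 ST array, and values are log2 RMA levels, on which a difference of 1 is 2-fold. The level below which 95% of 1027 olfactory receptor genes lie, 4.10, was taken as background. In sorted cells that are measured in bulk, fewer cells of a type and less RNA per cell cannot be told apart.

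Type I interferons signal through Ifnar1 and Ifnar2 to a complex with Irf9 that binds the interferon-stimulated response element of antiviral genes. Interferon gamma signals through Ifngr1 and Ifngr2 to the gamma-activated site of its target genes and to Irf1, Ciita and Nlrc5, which drive the immunity-related GTPases, the guanylate-binding proteins and MHC class II and class I. Tumor cells that receive these signals show peptides to T cells on MHC molecules.

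Promoter sequence is shown for 6 genes with large gaps, because they moved together and carry a letter match to one of these elements. A RefSeq window (build GRCm38.p6) of 250 bases before to 50 bases after the start was found for 44 of the 68 genes set apart lower, that is, at least 2-fold lower in both mice 3 and 6 than in the nearest other pEGFR-Lo mouse. For the response element, the letters GAAA, any 2 bases and GAAA again were searched on either strand, and for the gamma-activated site TTCNNNGAA, which reads the same on both strands. The former were in 16 of 51 windows of these genes (31.4%) and in 3.27% of 19177 windows of the genes tested. The latter were in 10 windows (19.6%) against 7.66%, and 4 windows held both, at Bst2, Gbp5, Gm12185 and Gm12250. The division behind these genes was chosen by interferon-stimulated genes, so a surplus of such letters is built in and lends the division no weight. Some genes have more than 1 window, so the windows are not separate genes. A match is a description of the letters and not a binding site. The pieces run 5′ to 3′ in the sense of the gene, upstream of the start, and the capitals mark the match. In Irgm1 and Gbp3 a pair of overlapping matches is drawn as 1 run. They are Irgm1 (chr11:48871421-48871510, minus strand), Gbp3 (chr3:142559954-142560043, plus strand), Ifit1 (chr19:34640764-34640853, plus strand), Cxcl10 (chr5:92349053-92349139, minus strand), Irf1 (chr11:53769884-53769973, plus strand) and Psmb8 (chr17:34198058-34198147, plus strand).
Irgm1: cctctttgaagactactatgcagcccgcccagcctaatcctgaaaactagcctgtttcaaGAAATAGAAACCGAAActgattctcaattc
Gbp3: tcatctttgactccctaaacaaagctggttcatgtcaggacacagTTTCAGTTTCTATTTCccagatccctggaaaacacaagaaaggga
Ifit1: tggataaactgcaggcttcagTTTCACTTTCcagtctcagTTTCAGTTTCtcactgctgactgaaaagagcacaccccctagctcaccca
Cxcl10: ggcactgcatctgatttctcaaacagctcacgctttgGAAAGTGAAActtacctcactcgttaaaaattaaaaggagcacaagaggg
Irf1: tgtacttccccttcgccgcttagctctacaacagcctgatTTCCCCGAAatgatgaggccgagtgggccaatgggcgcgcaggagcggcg
Psmb8: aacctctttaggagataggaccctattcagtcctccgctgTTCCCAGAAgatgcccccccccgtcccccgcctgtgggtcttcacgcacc

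Psmb9, a catalytic subunit of the immunoproteasome, and Tap1, a subunit of the transporter that carries peptides to MHC class I, are divergent neighbours with 225 bases between their RefSeq starts (chr17:34187331-34187555, GRCm38.p6, plus strand, in the sense of Tap1). The stretch is shown because the genes on its sides had 2 of the 3 largest gaps in mice 3 and 6, and it holds neither set of letters.
Psmb9 to Tap1: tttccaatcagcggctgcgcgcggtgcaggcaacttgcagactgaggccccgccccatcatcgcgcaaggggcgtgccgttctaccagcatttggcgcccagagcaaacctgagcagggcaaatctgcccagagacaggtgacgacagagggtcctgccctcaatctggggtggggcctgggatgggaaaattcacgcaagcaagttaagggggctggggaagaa

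Of the 4 genes that mark the division, 3 followed it and Oas2 did not. H2-Aa, a chain of an MHC class II molecule, was at 9.18, 9.58, 7.47, 10.14, 10.09 and 7.07 in pEGFR-Lo mice 1 to 6. Cd74, the invariant chain that guides class II molecules, was at 10.22, 10.93, 8.65, 11.74, 11.59 and 8.44. Both were lowest in mice 3 and 6, with a gap of 1.70 and 1.57 to the nearest other mouse. Irf7, the amplifier of type I interferon production, was at 6.59, 6.81, 4.57, 6.58, 5.98 and 5.15, so mice 3 and 6 were again lowest, with a smaller gap of 0.84. Oas2, an antiviral RNA-sensing enzyme, was at 4.37, 4.61, 4.59, 5.0, 4.63 and 4.24. Its range in pEGFR-Lo lay close to background, and the level of mouse 3 fell among the other mice.

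A gene was called set apart when both mice 3 and 6 lay at least 2-fold from the nearest of the other 4 pEGFR-Lo mice. By this rule 68 of 19938 genes were lower (0.341%) and 1 gene, Abca8a, was higher (0.00502%). Just inside the limit, Lgals9 had a gap of 1.02, and just outside it, Nod1 had 0.98. Without a limit on size, mice 3 and 6 did not overlap with the others in 1352 genes that were lower (6.78%) and 1569 that were higher (7.87%). Any pair of arrays is lowest or highest in some genes, and no other pair was counted. These shares alone thus do not mark mice 3 and 6, and counts of a list without overlap are to be read beside them. The upward count depends on single mice and on the rule: it was 11, 3, 6, 2 and 8 without pEGFR-Lo mice 1, 2, 3, 5 and 6, and 19 under no overlap with a 2-fold difference of medians, which gave 131 lower. Of the 68 genes, 48 belong to 8 lists of interferon, MHC and chemokine genes, 1 only to another list and 19 to no list. Among the 100 genes with the largest spread over the 6 pEGFR-Lo mice, 58 were in the set apart lower. The rule itself asks for a wide spread over the same mice, so this overlap is largely built in.

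**Figure D1:**
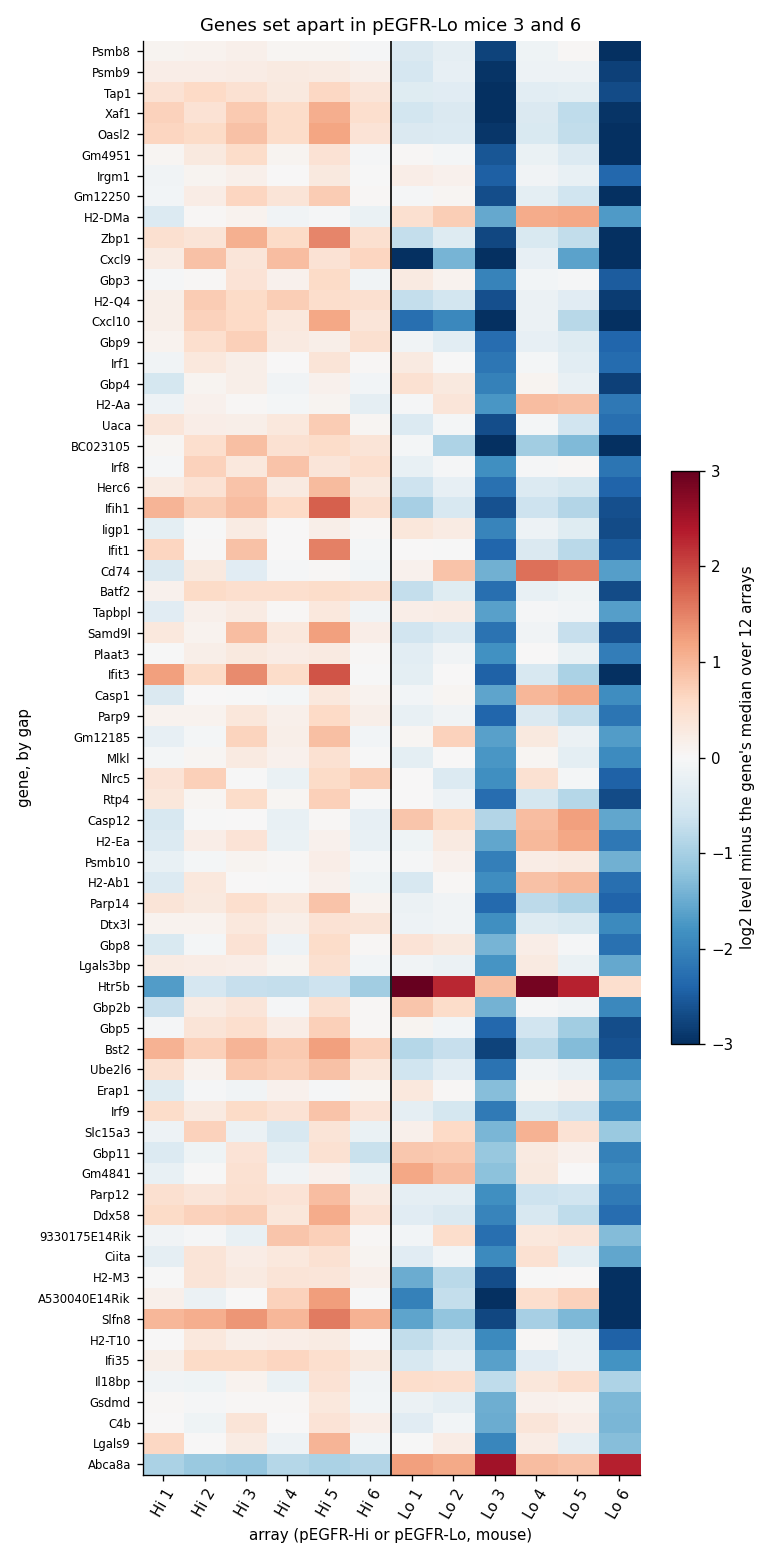
Log2 level minus the gene's median over 12 arrays (color, saturated at 3 in either direction) for the 68 genes set apart lower and for Abca8a (rows, by gap) in 6 pEGFR-Hi and 6 pEGFR-Lo mice (columns). The columns of pEGFR-Lo mice 3 and 6 are blue in 67 rows, Htr5b is blue in pEGFR-Hi and weaker red in mice 3 and 6, and Abca8a in the last row is reddest there.

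The interferon ligands and their receptors did not follow the division. Of 11 measured members, 0 were set apart, 0 were lower without overlap and 2 were higher without overlap, with a median difference of 0.03 against 0.01 over all genes. Ifnb1, the type I interferon of most tissue cells, was at 2.56, 3.20, 3.11, 2.76, 3.20 and 3.23, below background in each pEGFR-Lo mouse. Ifng, the type II interferon of lymphocytes, was at 4.01, 4.0, 3.71, 3.95, 4.46 and 4.10, near background. Levels this low cannot show whether the ligands differ between the mice. The receptor chain Ifnar1 was at 7.57, 7.73, 7.58, 7.47, 7.53 and 7.57, and Ifngr1 was at 7.20, 7.14, 7.20, 7.23, 7.12 and 7.10. Both receptors were above background in each mouse, and in neither were mice 3 and 6 apart from the other mice as a pair. The 2 members that did not overlap were Ifnlr1, a receptor chain for interferon lambda, at 4.51 and 4.33 in mice 3 and 6 against 3.89 to 4.21, and Ifnl2, a ligand of it, with a gap of 0.01. Ifnlr1 too lay near background.

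Among the sensors of viral nucleic acid and their adaptors, 3 of 18 were set apart and 10 were lower without overlap, with a median difference of -0.32. Zbp1, a sensor of Z-form nucleic acid, was at 8.47, 8.80, 6.46, 8.72, 8.45 and 5.90, which is 3.98-fold between the nearest mice. The RNA sensors Ifih1 and Ddx58 were at least 2.86-fold and 2.35-fold lower in the same sense, and Ifih1 was below background in mice 3 and 6. Eif2ak2, the RNA-activated kinase, had a gap of 0.65.

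Of 11 signal transducers and interferon regulatory factors, 3 were set apart and 7 were lower without overlap (median difference -0.76). Irf1, the factor most directly induced by interferon gamma, was at 9.42, 9.14, 6.97, 9.08, 8.84 and 6.83. Irf8, a factor of myeloid cells that interferon gamma also induces, was at 8.11, 8.29, 6.48, 8.28, 8.36 and 6.13. Irf9, the DNA-binding part of the type I complex, was at 6.85, 6.60, 5.01, 6.66, 6.51 and 5.23. In these 3 genes mice 1, 2, 4 and 5 lay within 0.6 of each other, and mice 3 and 6 within 0.4. The feedback regulators behaved alike, with 2 of 7 set apart, Herc6 and Ube2l6, and 5 lower without overlap (median difference -0.83). Usp18, which removes Isg15 and damps the receptor, had a gap of 0.84.

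Of 50 antiviral effectors, 15 were set apart, 39 were lower without overlap and 0 were higher without overlap, with a median difference of -1.10. Xaf1, an antagonist of apoptosis inhibitors, was at 8.38, 8.5, 5.56, 8.5, 8.16 and 5.99, and Oasl2, of the oligoadenylate synthase family, was at 8.19, 8.21, 5.71, 8.16, 7.88 and 5.46. Each was about as far apart in mice 3 and 6, 4.50-fold and 4.49-fold between the nearest mice. Ifit1, which binds foreign RNA caps, was 3.0-fold and Samd9l 2.86-fold lower. Bst2, which tethers virions to the cell, was at 9.38, 9.55, 7.46, 9.44, 8.93 and 7.63. The list mean was 5.67 and 5.53 in mice 3 and 6 and 6.5 to 6.80 in the other 4.

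The immunity-related GTPases and guanylate-binding proteins, which attack the vacuoles of intracellular parasites, stood apart as a group. All 9 measured members were lower without overlap, 8 of them were set apart, and the median difference was -2.18. Irgm1 was at 11.11, 11.04, 8.45, 10.81, 10.69 and 8.54, and Gbp3 was at 9.62, 9.45, 7.34, 9.28, 9.31 and 6.85. Gbp4 was at 10.82, 10.65, 8.34, 10.44, 10.14 and 7.57. The list mean was 7.48 and 6.96 in mice 3 and 6 and 9.06 to 9.70 in the others, and the lowest of those 4 was mouse 5. Iigp1, one of the GTPases, was at 10.57, 10.48, 8.25, 10.08, 9.87 and 7.54. Members of these families, like the H2 genes, resemble each other in sequence, and how far their probes hybridize to each other was not tested.

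Antigen presentation by MHC class I held the 3 largest gaps of all genes. Of 20 measured members 10 were set apart, 15 were lower without overlap and 0 were higher (median difference -1.43). Psmb8, a catalytic subunit of the immunoproteasome, was at 10.09, 10.26, 7.76, 10.41, 10.56 and 7.52, which is 5.04-fold between the nearest mice. Psmb9 was at 11.30, 11.55, 8.85, 11.64, 11.64 and 8.99, and Tap1 was at 9.17, 9.20, 6.31, 9.24, 9.26 and 6.87. In all 3 the other 4 mice lay within 0.5 of each other. H2-Q4, a nonclassical heavy chain, was 3.80-fold lower, and Nlrc5, the transactivator of class I genes, was 2.72-fold lower. B2m, the common light chain, was at 12.28, 12.28, 11.74, 12.41, 12.30 and 11.35, a gap of 0.53 near the top of the range of the array.

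Among MHC class II genes, the other 4 mice were not in the order seen for the GTPases. Of 11 measured members 5 were set apart and 7 were lower without overlap, and Ifi30, a lysosomal reductase, was higher without overlap by 0.22 (median difference -1.82). H2-DMa, a chain of the peptide editor, was at 9.98, 10.23, 7.95, 10.61, 10.66 and 7.79. H2-Ab1, the partner of H2-Aa, was at 8.15, 8.65, 6.75, 9.50, 9.59 and 6.36. Ciita, the transactivator of class II genes, was at 6.47, 6.74, 4.92, 7.27, 6.53 and 5.26. Mice 4 and 5 had the highest levels of H2-Aa, Cd74, H2-DMa and H2-Ab1, ahead of mice 1 and 2, whereas for the GTPases Irgm1 and Gbp4 mice 1 and 2 were ahead of mice 4 and 5. H2-Eb2, a class II chain named after its values were seen, showed the order at its widest, at 4.77, 5.40, 4.23, 7.32, 7.57 and 3.79. The list mean was 5.71 and 5.65 in mice 3 and 6, 6.60 and 6.91 in mice 1 and 2, and 7.30 and 7.43 in mice 4 and 5.

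**Figure D2:**
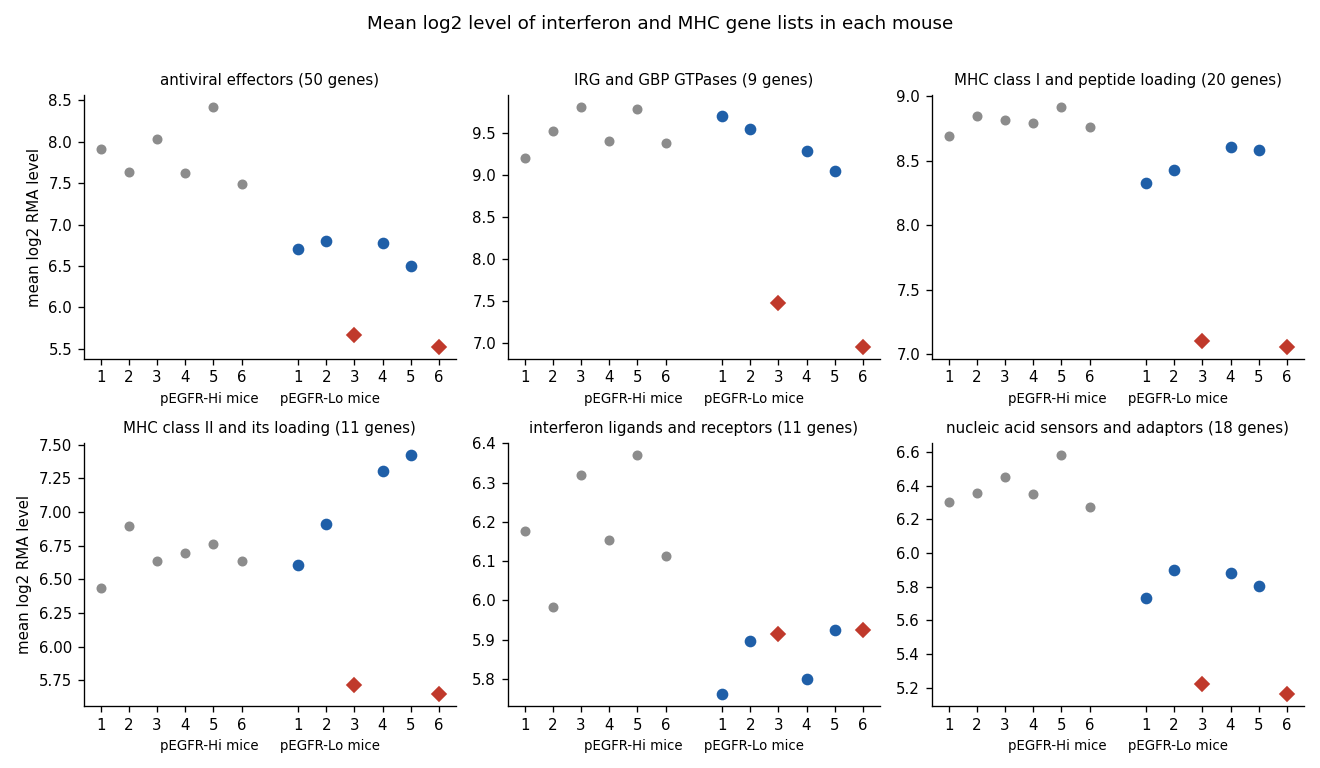
Mean log2 RMA level of the measured genes of 6 lists (y axis, each panel with its own range) in each mouse (x axis). Gray points are pEGFR-Hi, blue points pEGFR-Lo mice 1, 2, 4 and 5, and red diamonds pEGFR-Lo mice 3 and 6, which lie lowest in 5 panels but not for ligands and receptors. The blue points reach the gray ones for the GTPases and MHC class II and lie below them for antiviral effectors, sensors and MHC class I.

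Of 33 chemokines and cytokines only Cxcl9 and Cxcl10, which call T cells through Cxcr3, were set apart; 8 were lower and 2 higher without overlap (median difference -0.01). Cxcl10 was at 8.03, 8.36, 6.10, 10.13, 9.46 and 4.81. Cxcl9 was at 5.52, 7.10, 3.35, 8.27, 6.89 and 3.54, so it was below background in mice 3 and 6. These 2 genes had the largest spread over the pEGFR-Lo mice of all genes, with mouse 4 highest in both. Ccl5, another T cell chemokine, had a gap of 0.84. Il33, an alarmin of glial cells, was at 6.84, 6.46, 5.38, 7.46, 7.67 and 5.57, a gap of 0.89. Of 20 checkpoint ligands and costimulatory genes 0 were set apart and 6 were lower without overlap (median difference -0.14), with Tnfsf10, a death ligand, at a gap of 0.96 and Cd274, which encodes PD-L1, at 0.75. Of 22 complement genes C4b alone was set apart, at 2.04-fold, with 3 lower and 1 higher without overlap.

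The 19 genes set apart lower that no list holds included several known interferon targets. Gm4951, Gm12250 and Gm12185, which encode predicted GTPases related to the immunity-related family, had gaps of 2.15, 2.06 and 1.46, and BC023105 had 1.68. Batf2, a leucine zipper factor, and Plaat3, a phospholipase, had gaps of 1.54 and 1.51, and H2-Ea, a class II chain, had 1.43. Casp1, the inflammasome protease, was at 7.80, 7.94, 6.31, 8.87, 9.02 and 6.01. Casp12, a relative of it, was at 6.83, 6.55, 5.12, 6.91, 7.23 and 4.44. Mlkl, the effector of necroptosis, was at 8.14, 8.44, 6.69, 8.48, 8.14 and 6.54. For Casp1, mice 4 and 5 were ahead of mice 1 and 2, the order of the MHC class II genes, while for Mlkl the 4 mice lay close together. Gsdmd, the pore of pyroptosis, and Il18bp, the decoy of interleukin 18, were lower as well, by 2.14-fold and 2.16-fold between the nearest mice. Gbp2b, Slc15a3 and Gm4841, also in no list, had gaps of 1.31, 1.27 and 1.26.

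Uaca and Htr5b are not usually counted among interferon targets. Uaca, a coiled-coil protein linked to the apoptosome, was at 7.53, 7.89, 5.30, 7.89, 7.37 and 5.68, a difference of 3.22-fold between the nearest mice. Htr5b, a serotonin receptor, was at 9.55, 8.61, 7.26, 9.22, 8.67 and 6.87, or 2.55-fold. Htr5b stood above pEGFR-Hi in all 6 pEGFR-Lo mice, including mice 3 and 6, since pEGFR-Hi spanned 4.69 to 5.84. In Uaca, mice 3 and 6 were below the pEGFR-Hi range of 8.01 to 8.72 by more than the other pEGFR-Lo mice were. The transcripts A530040E14Rik and 9330175E14Rik were also set apart lower and are in no list. A530040E14Rik was at 5.11, 6.41, 3.94, 7.63, 7.82 and 3.91, below background in mice 3 and 6. 9330175E14Rik was at 5.34, 5.94, 3.16, 5.73, 5.78 and 4.12.

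In the upward direction, gaps in mice 3 and 6 were smaller. Abca8a, a lipid transporter, was at 5.34, 5.24, 6.61, 5.03, 4.95 and 6.44, or 2.15-fold between the nearest mice. Slc6a11, a GABA transporter of astrocytes, was at 6.45, 5.97, 7.35, 6.11, 5.60 and 7.24, a gap of 0.79. Npvf, a neuropeptide precursor, was at 8.18, 8.01, 9.04, 6.84, 7.77 and 8.92, a gap of 0.73. Mice 3 and 6 were the highest pEGFR-Lo mice for these 3 genes, and only Abca8a passed the limit. Scn3a and Ache, a sodium channel and acetylcholinesterase, had gaps of 0.73 and 0.65, and Grin3a, a glutamate receptor subunit, had 0.64. Further names in the 12 largest were Clrn1, Daam2, Hoxa10, Mlh3, Tcf7l1 and Srgn, with gaps of 0.72 down to 0.52. By list, 4 of 16 astrocyte genes and 8 of 34 genes of the extracellular matrix and its proteases were higher without overlap against 1 and 4 lower, with median differences of 0.18 and 0.13. Over all genes, 7.87% were higher and 6.78% lower without overlap. The astrocyte list mean was 7.95 in mouse 3 but 7.68 in mouse 6, within the 7.545 to 7.692 of the other 4 mice, so it does not mark the pair.

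**Figure D3:**
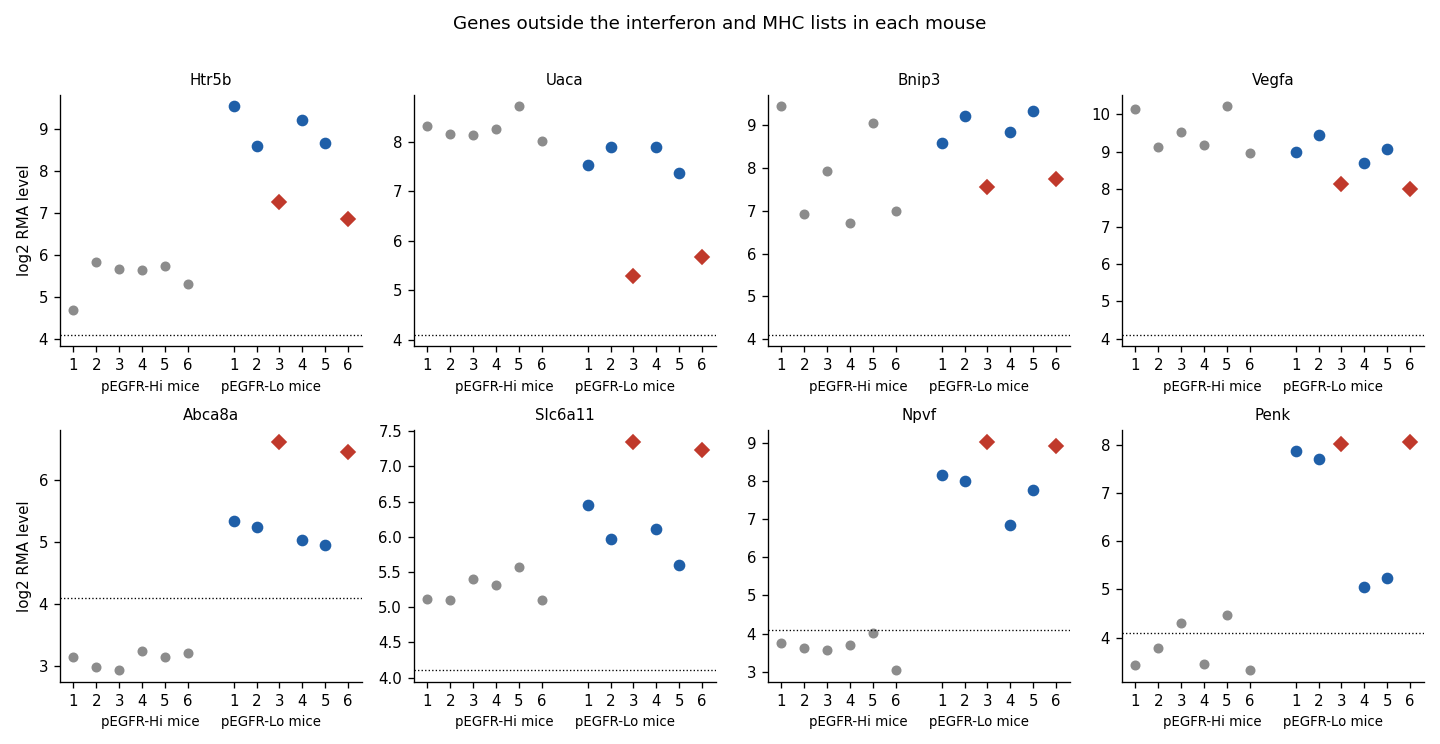
Log2 RMA level (y axis, own range per panel) of 8 genes outside the interferon and MHC lists in each mouse (x axis), with background as a dotted line. Gray points are pEGFR-Hi, blue points pEGFR-Lo mice 1, 2, 4 and 5, and red diamonds mice 3 and 6, which are lowest of the pEGFR-Lo mice for Htr5b, Uaca, Bnip3 and Vegfa and highest for Abca8a, Slc6a11, Npvf and Penk.

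Genes of hypoxia and glycolysis leaned lower in mice 3 and 6. Of 30 measured members 11 were lower without overlap, 0 were higher and 0 were set apart, with a median difference of -0.25. Over all genes 6.78% were lower and 7.87% higher without overlap. The list mean was 7.678 and 7.703 in mice 3 and 6 and 7.858 to 8.185 in the other 4. In pEGFR-Hi it spanned 7.556 to 8.519. Bnip3, a mitophagy receptor that hypoxia induces, was at 8.59, 9.22, 7.55, 8.84, 9.32 and 7.74. Vegfa, the main angiogenic factor, was at 9.0, 9.45, 8.13, 8.70, 9.07 and 8.0. Pfkp, a platelet-type phosphofructokinase of glycolysis, was at 6.54, 6.76, 5.86, 6.82, 7.18 and 5.85. The gaps were 0.85, 0.56 and 0.68. In pEGFR-Hi, Bnip3 spread over 6.72 to 9.44, a wider range than the 7.55 to 9.32 of pEGFR-Lo. Lists that moved little between the 2 and the 4 arrays were DNA replication (0 of 28 without overlap, median difference 0.00), cholesterol and fatty acid synthesis (0 of 25, 0.03) and oxidative phosphorylation (0 of 23, -0.06).

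Marker genes of most immune cells were not lower in mice 3 and 6. The means of the 27 microglia and macrophage genes were 3.78 to 4.0 in mice 1, 2, 4 and 5 and 3.86 and 4.14 in mice 3 and 6, and 1 was lower and 3 were higher without overlap. The means of the 20 T and NK cell genes were 3.32 to 3.49 and 3.47 and 3.41. Ptprc, the common leukocyte antigen, lay between 2.62 and 2.99 over the 6 mice and Itgam, of myeloid cells, between 2.63 and 3.0, both below background. Csf1r, the receptor that microglia depend on, lay between 3.36 and 3.97, also below background. P2ry12, a microglial receptor, was above background at 5.69 to 6.81, and its levels in mice 3 and 6 (6.65 and 6.81) were among the higher ones. Its pEGFR-Hi minus pEGFR-Lo difference was -1.75, and which cells express it was not tested. Tmem119, another microglial gene above background, leaned the other way, at 4.35, 5.03, 4.51, 5.49, 5.44 and 4.61 in mice 1 to 6. Cx3cr1, also microglial, was at 4.87 and 5.29 in mice 3 and 6, within the 4.85 to 5.49 of the others. S100a8, of neutrophils, was at 4.11 in mouse 6 and 2.34 to 3.30 in the others. The mean of 12 dendritic cell genes was lower, at 4.26 and 4.30 in mice 3 and 6 and 4.39 to 4.5 in the others. Of the 2 dendritic cell genes that were lower without overlap, Bst2 is also an antiviral effector and Xcr1 was below background. Kdm5d, Uty and Eif2s3y, from the Y chromosome, were below background in all 6 pEGFR-Lo mice and above it in all 6 pEGFR-Hi mice, at 5.99 to 6.4, 4.86 to 5.52 and 6.45 to 7.10. The groups thus also differ in Y-linked expression, which cannot be told apart from the line in their comparison.

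**Figure D4:**
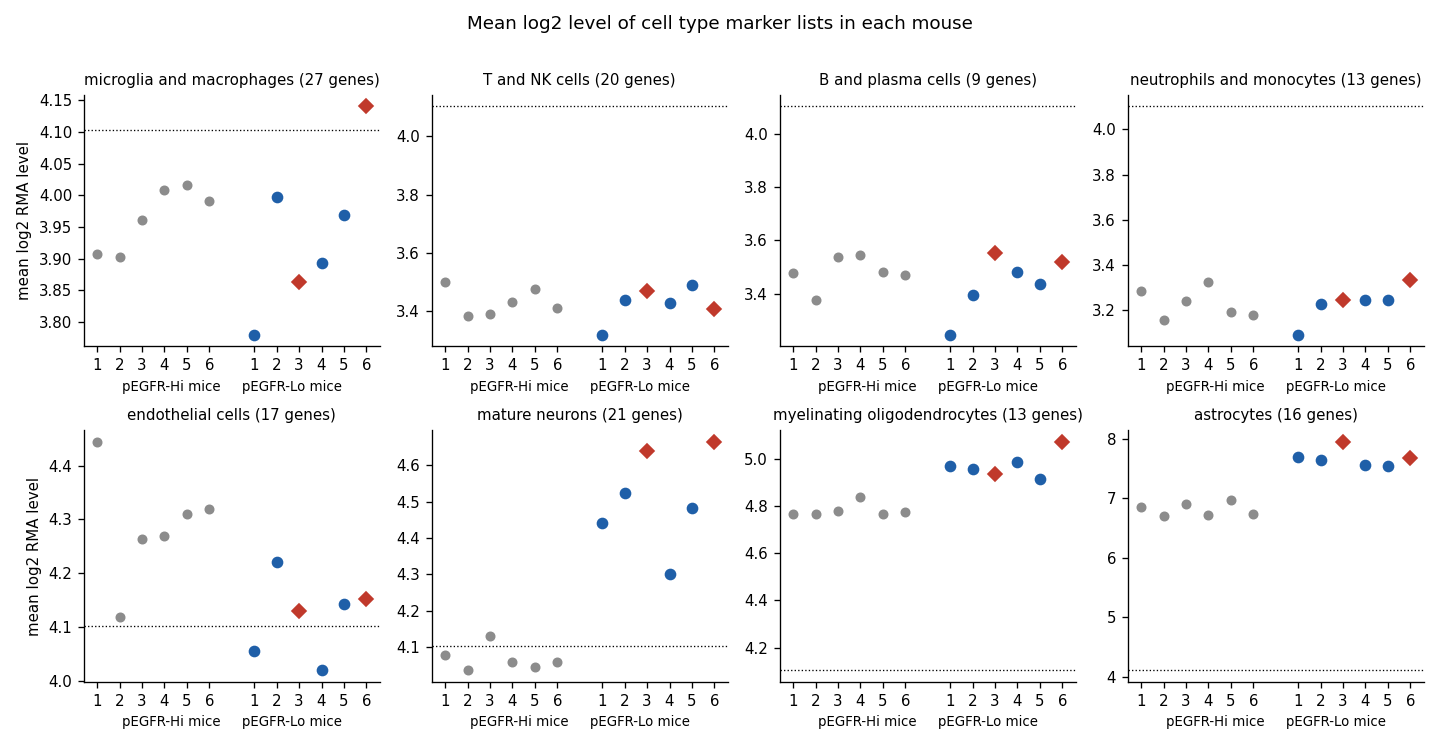
Mean log2 RMA level of 8 cell type marker lists (y axis, own range per panel) in each mouse (x axis), with background as a dotted line and symbols as in the plots by mouse. Mice 3 and 6 are not lower than the other pEGFR-Lo mice as a pair in any of the 8 panels, and lymphoid, neutrophil and most microglial means lie below background.

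The arrays of mice 3 and 6 stood apart mainly in genes of the interferon lists. Array medians ran from 4.81 to 4.88 over the 12 arrays. Mice 3 and 6 had 105 and 117 genes at least 2-fold below the median of their group, against 6 to 69 in the other 4. Of the 105 and 117 genes, 61 and 68 were in the 8 interferon lists. The division was chosen by such genes and the lists with earlier results known, so a large share is built in. Genes 2-fold above the median numbered 25 and 24 in mice 3 and 6, within the range of 19 to 31 in the others. Over all genes, which include those that chose the division, the correlation of mice 3 and 6 was 0.9906. Mouse 3 was at 0.9902 with mouse 1, and mice 1 and 2 were at 0.9935. Without the genes of the interferon lists, mice 3 and 6 were at 0.9907 and mouse 3 at 0.9913 with mouse 1. Mouse 6 was at 0.9907 with mice 2 and 4. Mice 1 and 2 stayed at 0.9935, so mice 3 and 6 were the most alike pair in neither case. These correlations are across genes, which are not independent.

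Mice 3 and 6 touch the comparison of the labelled groups, which was tested with limma with limits of 0.01 on the adjusted p and 2-fold on the difference. With all 12 arrays pEGFR-Hi had the higher level in 795 genes (3.99%) and pEGFR-Lo in 1009 (5.06%). Without mice 3 and 6 the counts were 737 (3.70%) and 975 (4.89%). Since the 2 arrays were left out for their interferon genes, the second fit shows how far each call rests on them and is no independent test of those genes. Against the 6 pEGFR-Hi mice, mice 3 and 6 lay below all of them in 67 of the 68 genes, the exception being Htr5b. Over all 19938 genes they did so in 3846, and the 68 were picked for low levels in these 2 mice. Mice 1, 2, 4 and 5 lay below all pEGFR-Hi mice in 25 of the 68, above all in 3 (H2-DMa, Casp12 and Htr5b) and overlapped them in 40. Over all genes these counts were 2769, 2514 and 14655. Of the 68 genes set apart lower, 25 were called higher in pEGFR-Hi with 12 arrays and 11 without mice 3 and 6, all 11 of them among the 25. All 14 lost calls fell under the 2-fold limit, and 13 of them kept an adjusted p under 0.01. With all 12 arrays and a trended and robust eBayes, 10 of the 68 were called. Toward pEGFR-Lo, 1 of the 68 was called with 12 arrays, Htr5b, and 3 without mice 3 and 6, Htr5b, Casp12 and Cd74.

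The groups of genes behaved differently in this comparison. Of 50 antiviral effectors, 32 were called higher in pEGFR-Hi with 12 arrays and 24 without mice 3 and 6, and in 34 of them mice 1, 2, 4 and 5 all lay below all pEGFR-Hi mice, as 13.9% of all genes did. Irf7 was 3.05 higher in pEGFR-Hi (SE 0.34, adjusted p = 2.71e-06) and 2.51 higher without mice 3 and 6, and Oas2 was 2.43 higher (SE 0.29, adjusted p = 6.11e-06) and 2.35 higher. Cxcl10 was 3.03 higher (SE 0.68, adjusted p = 0.00201) and 1.85 higher. These stayed past the limits in both fits. Of the 9 GTPases 1 was called with 12 arrays, Gbp9, and 0 without mice 3 and 6, and their list mean in mice 1, 2, 4 and 5 (9.06 to 9.70) overlapped that of pEGFR-Hi (9.21 to 9.81). Irgm1 was 0.86 higher in pEGFR-Hi (SE 0.42, adjusted p = 0.132) and 0.06 higher without mice 3 and 6. Of 20 MHC class I genes 4 were called with 12 arrays and 0 without, among them Tap1, at 1.66 (SE 0.46, adjusted p = 0.00889) and 0.79 (adjusted p = 8.75e-06 in limma). All 4 then differed by less than 2-fold, and 3 of them kept an adjusted p under 0.01. The 2 arrays were left out for low levels of such genes, and the SE of Tap1 was then 0.09. These p-values of the second fit are thus no independent test. In limma without mice 3 and 6, 3 GTPases and 10 class I genes were higher in pEGFR-Hi at an unadjusted p under 0.05, and 1 GTPase was higher in pEGFR-Lo.

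For MHC class II, limma called 0 of 11 genes with 12 arrays, and 1 was higher in pEGFR-Hi at an unadjusted p under 0.05. Without mice 3 and 6, Cd74 alone was called, toward pEGFR-Lo, and 4 genes were higher there at an unadjusted p under 0.05 and 0 in pEGFR-Hi. The share of all genes at that unadjusted limit was not counted, so these counts too are no result about the list. H2-Aa was 0.25 higher in pEGFR-Hi (SE 0.45, adjusted p = 0.728) and for Cd74 the difference was -0.27 (SE 0.49, adjusted p = 0.734). Without mice 3 and 6 the differences were -0.57 and -1.13, toward pEGFR-Lo. H2-DMa in mice 1, 2, 4 and 5 lay above all pEGFR-Hi mice, which spanned 9.09 to 9.60. Abca8a differed by -2.49 with 12 arrays and -2.03 without mice 3 and 6, and Il33 by -3.04 and -3.58, toward pEGFR-Lo in both fits. Slc6a11 differed by -1.18 and -0.76, and its call was lost.

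**Figure D5:**
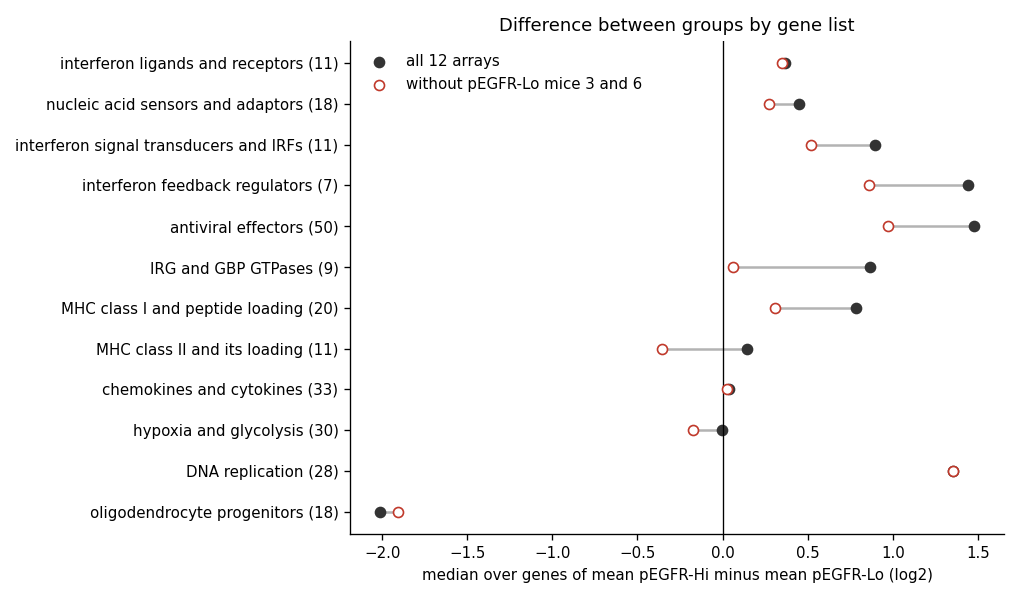
Median over the genes of each list (number of genes in parentheses) of mean pEGFR-Hi minus mean pEGFR-Lo level on the log2 scale (x axis), with all 12 arrays (filled) and without pEGFR-Lo mice 3 and 6 (open). The median of the GTPases moves from 0.86 to 0.06 and that of MHC class II from 0.14 to -0.36. That of antiviral effectors moves from 1.48 to 0.97 and stays toward pEGFR-Hi. DNA replication hardly moves, from 1.354 to 1.356.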

How the data were processed

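RNA of sorted tumor cells was measured in 12 arrays, 6 per group, and groups and mouse numbers were taken from the sample titles. The authors deposited log2 values made by RMA in Affymetrix Expression Console, which corrects background, quantile normalizes across arrays and summarizes probe sets, so changes in total RNA per cell cannot be seen. No genome build is named for these values in the sources used here.

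Of 35556 probe sets, 21789 carried a single symbol and were used, while 1621 that carried several and 12146 without any were set aside. The brightest probe set by mean over 12 arrays stood for each of 999 genes that had several. This left 19938 genes, 13519 of them with a mean above background. Symbols of 21698 probe sets were matched to RefSeq. A number of genes on the lists were not analysed here.

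The members and gene lists were chosen with earlier results of these data known. Mice 3 and 6 were compared with mice 1, 2, 4 and 5 by the gap between their nearest arrays, with no test; a fold is taken between the nearest arrays, with the dimmer one no lower than background. The groups were compared with limma 3.58.1 in R 4.3.3 (lmFit, eBayes, Benjamini-Hochberg adjustment); limma took the place of the SAM test named in the methods. Tables were handled with pandas 2.3.3 and numpy 2.4.6 in Python 3.11.15, and figures drawn with matplotlib 3.10.9. The limma and gap code was tested on simulated data. Named genes are the 4 markers, the 12 largest gaps in each direction outside the immune lists, from each list described at most 4 genes that moved with most of its members and at most 2 that moved against them, and cell type and sex markers. Il33, Bnip3, Vegfa, Pfkp, H2-Eb2, H2-Ea, B2m, Ifnb1, Ifng, Ifnar1, Ifngr1, Insl6, Aldh1a1, Penk, Pth2r, Crym, Gsdmd, Il18bp, Lgals9, Nod1, Tmem119, Gbp2b, Slc15a3, Gm4841, A530040E14Rik and 9330175E14Rik were named after their values were seen. Alternatives were another gap limit, a rule on medians, a filter on dim genes, the mean of probe sets, other normalizations, leaving out arrays, a trended and robust eBayes, and a block on mouse number. The number of arrays limits the precision.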

Additional observations from a re-analysis of the deposited data

Results flagged for a closer look

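Over 52 sets of 6 values (lists and marker genes in each group), 3 had a highest or lowest mouse farther from the rest than Dixon's 95% critical value allows; chance gives about 1 in 20 such sets. The mean of 16 astrocyte genes was 7.95 in pEGFR-Lo mouse 3, above the other pEGFR-Lo mice. The mean of 12 dendritic cell genes was 4.52 in pEGFR-Hi mouse 6, below the others, and that of 13 myelinating oligodendrocyte genes was 4.84 in pEGFR-Hi mouse 4, above the others. No interferon or MHC list was among them, since mice 3 and 6 lie low as a pair.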

How the results depend on the processing

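The count of 68 genes set apart lower was 119 at a gap of 1.5-fold and 131 under no overlap with a 2-fold difference of medians, and 69 to 89 without each pEGFR-Lo mouse. It was 68 with genes above background, with the mean of probe sets, after another quantile normalization and after centring. The 1 gene set apart higher became 9 and 19 under those 2 rules and 1 to 11 without each mouse, with 11, 3, 6, 2 and 8 without mice 1, 2, 3, 5 and 6. In the comparison of groups, 774 to 846 genes were higher in pEGFR-Hi and 991 to 1031 in pEGFR-Lo without each array. The numbers of the mice do not pair them: same-numbered mice deviated with correlations of -0.18 to 0.12, and with the replicate number as a block 801 and 1008 genes were called. Of the 68 genes, 30 were then called higher in pEGFR-Hi, against 10 with trend and robust, 11 without mice 3 and 6, and 19 to 28 without each array; toward pEGFR-Lo it was 3 without mice 3 and 6 and 1 without each array. The cause of these changes was not tested. H2-Aa turned to -0.57 without mice 3 and 6, and lay between -0.12 and 0.495 without each array (-0.038 without pEGFR-Lo mouse 3 and lowest without pEGFR-Lo mouse 6). Cd74 was -1.13 without mice 3 and 6, and lay between -0.63 and 0.026 without each array, positive without pEGFR-Lo mouse 4.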

Other observations

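Several genes that varied most among the pEGFR-Lo mice separated mice 4 and 5 from the other 4. Aldh1a1, an enzyme of retinoic acid synthesis, was at 7.17, 7.19, 6.65, 9.46, 10.06 and 6.23 in mice 1 to 6. Penk, the enkephalin precursor, was at 7.87, 7.70, 8.02, 5.05, 5.23 and 8.06, and Pth2r, a peptide hormone receptor, was at 7.31, 6.70, 7.05, 4.56, 3.53 and 7.19. Mice 4 and 5 were highest in the former and lowest in the latter, and they were also highest for MHC class II. Crym, a thyroid hormone-binding protein, was at 7.91, 9.74, 6.89, 5.72, 5.15 and 8.69, and Insl6, a relaxin family gene, at 5.60, 6.72, 5.41, 7.93, 8.75 and 4.39. In Aldh1a1 and Insl6 mice 3 and 6 were also the lowest, and in Penk the highest, without overlap. These genes were chosen after their values were seen, and no test was run.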
